A study of Mus musculus with 20 samples.

Results

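The 10 genes described here encode parts of the machinery by which cells register amino acids. Mtor, Rptor, Rictor and Deptor code for subunits of the mTOR complexes, Rragd and Depdc5 for regulators at the lysosome, Sesn1 and Sesn3 for sestrins, Eif4ebp1 for a substrate of mTOR complex 1 (mTORC1), and Eif2ak4 for the kinase GCN2. They are defined by their symbols and roles, with no threshold on their values, although earlier results of these data were known when they were chosen. All 10 were among the 15956 genes in the count table and among the 13991 genes with enough counts for a test.

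Left ventricular heart tissue came from 20 male mice that started their diets at 12 months of age and stayed on them for 4 months, with 5 mice in each of 4 groups. The NP diet held 20% casein, the LP (low protein) diet 5% casein, the HF (high-fat) diet 60% fat and 20% casein, and the HF + LP diet 60% fat and 5% casein. No transgene, deletion or drug is named for any group, and the mouse strain is not given in the sources used here. Age at collection was 16 months in the study's methods and 18 months in every sample label. Each library is labelled as 1 animal, so the spread given below is a spread between mice, and LP mouse 5 is labelled as that animal's second sample. Values of single mice are listed in the order 3, 4, 5, 6 and 8 for NP, 2, 5, 13, 15 and 20 for LP, and 1 to 5 for HF and HF + LP.

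mTOR is a protein kinase found in a pair of complexes, mTORC1, which is built around raptor (Rptor), and mTORC2, which is built around rictor (Rictor). When amino acids are plentiful, Rag GTPases recruit mTORC1 to the lysosome, where it promotes translation and restrains autophagy. The GATOR1 complex opposes the Rag GTPases, and sestrins keep GATOR1 active when leucine is scarce. GCN2 answers the same shortage by another route, in which uncharged tRNA activates the kinase, eIF2α becomes phosphorylated, and general translation slows while the transcription factor ATF4 is made. In heart muscle mTORC1 is known for its role in growth and protein turnover. Much of this control acts on proteins rather than on transcripts, and the values below are transcript levels only.

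Counts came from 3′ end sequencing, in which each transcript is read near its poly(A) tail, and are given as normalized counts, that is, counts scaled by TMM factors to a library of average size. Total counts lay between 12559607 and 23331907 per mouse. Raw counts of the 10 genes ran from 36, for Eif2ak4, to 1692, for Deptor. The summed level of 8 cardiomyocyte markers, Actc1 the strongest of them, was between 35945 and 51753 CPM in every library. In ventricular RNA as a whole, fewer cells of a type and less RNA per cell cannot be told apart. LP mouse 13 correlated least with its group (median r = 0.907, against at least 0.942 for the other 19 mice). It also had the highest summed adipocyte (340 CPM) and atrial (16747 CPM) markers, although atrial markers reached 12343 CPM in HF mouse 1 as well. Several values below are also given without this or another single mouse. A single edgeR model (quasi-likelihood test) held all 4 groups, and to be called a gene needed an adjusted p (Benjamini-Hochberg, over all genes tested) below 0.01 together with more than 50 normalized counts on average. LP mouse 20 had the highest lymphocyte markers, at 175 CPM.

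Promoter windows from RefSeq (GRCm38.p6), each with 250 bases before and 50 after an annotated transcript start, were found for 8 of the 10 genes, with 10 windows in all. Deptor and Eif4ebp1 had none. The windows of Rptor and Mtor are printed because these genes had the smallest p of the 10 in HF against NP, and those of Sesn1 and Sesn3 because their levels varied together between mice. All 4 lie on the plus strand, at chr11:119602655-119602954 for Rptor, chr4:148448332-148448631 for Mtor, chr10:41810324-41810623 for the upstream window of Sesn1, and chr9:14276051-14276350 for Sesn3. Capitals mark the match to a motif.
Rptor: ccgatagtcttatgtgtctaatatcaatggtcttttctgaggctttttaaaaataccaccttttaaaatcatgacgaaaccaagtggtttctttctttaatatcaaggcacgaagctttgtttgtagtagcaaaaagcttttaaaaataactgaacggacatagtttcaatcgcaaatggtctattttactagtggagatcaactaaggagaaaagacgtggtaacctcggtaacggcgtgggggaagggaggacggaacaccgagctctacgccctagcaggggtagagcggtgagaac
Mtor: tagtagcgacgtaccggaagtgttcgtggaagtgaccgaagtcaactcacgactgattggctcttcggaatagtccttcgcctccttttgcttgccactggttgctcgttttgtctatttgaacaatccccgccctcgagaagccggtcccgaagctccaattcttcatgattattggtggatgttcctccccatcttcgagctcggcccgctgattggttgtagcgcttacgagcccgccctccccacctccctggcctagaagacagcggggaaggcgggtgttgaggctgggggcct
Sesn1: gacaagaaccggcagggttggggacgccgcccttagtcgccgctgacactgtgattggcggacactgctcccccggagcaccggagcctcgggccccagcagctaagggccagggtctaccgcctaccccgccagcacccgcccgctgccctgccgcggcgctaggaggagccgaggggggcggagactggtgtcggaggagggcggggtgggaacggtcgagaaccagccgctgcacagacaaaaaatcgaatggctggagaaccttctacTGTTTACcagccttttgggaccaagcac
Sesn3: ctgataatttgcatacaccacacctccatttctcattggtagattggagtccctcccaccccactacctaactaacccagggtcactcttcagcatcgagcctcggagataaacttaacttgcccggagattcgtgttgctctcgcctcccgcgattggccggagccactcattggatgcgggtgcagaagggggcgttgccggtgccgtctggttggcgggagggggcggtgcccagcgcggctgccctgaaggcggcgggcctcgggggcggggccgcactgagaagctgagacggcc

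A total of 3 motifs were searched on both strands, the E-box CACGTG that forms the core of the element bound by TFEB, the FOXO motif GTAAACA, and TGATGCA, a core of the element bound by ATF4. The E-box was absent from the 10 windows and present in 7.15% of the 32851 windows in the table. The FOXO motif was present on the minus strand of the upstream Sesn1 window, starting at base 23 after the transcript start, and in 3.65% of all windows. The ATF4 core was absent from the 10 windows and present in 1034 of all windows. With 1 match in the 10 windows, no motif overlapped another. The GC content of the 10 windows ran from 41.7% for Rptor to 78.3% for Rictor, beside a median of 52.7% over all windows.

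None of the 10 genes was called in any of the 6 comparisons. The share of all genes tested that was called was 0% for LP against NP, 0% for HF + LP against HF, 0.264% for HF against NP, 0.1% for HF + LP against LP, 0% for low against normal protein averaged over both fat contents, and 0% for the interaction of fat and protein. At an unadjusted p under 0.05 the genes that stood out were Rptor and Mtor in HF against NP and Rptor in HF + LP against LP. These were 2 of 10 genes beside 13.1% of all genes in the first comparison, and 1 of 10 beside 15.9% in the second. No gene of the 10 had such a p in LP against NP (7.23% of all genes), HF + LP against HF (4.84%), the average over fat contents (5.47%), or the interaction (7.17%). The 3 values under 0.05 were all lower with high fat, a direction and threshold met by 7.91% of all genes in HF against NP and by 9.66% in HF + LP against LP.

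**Figure D1:**
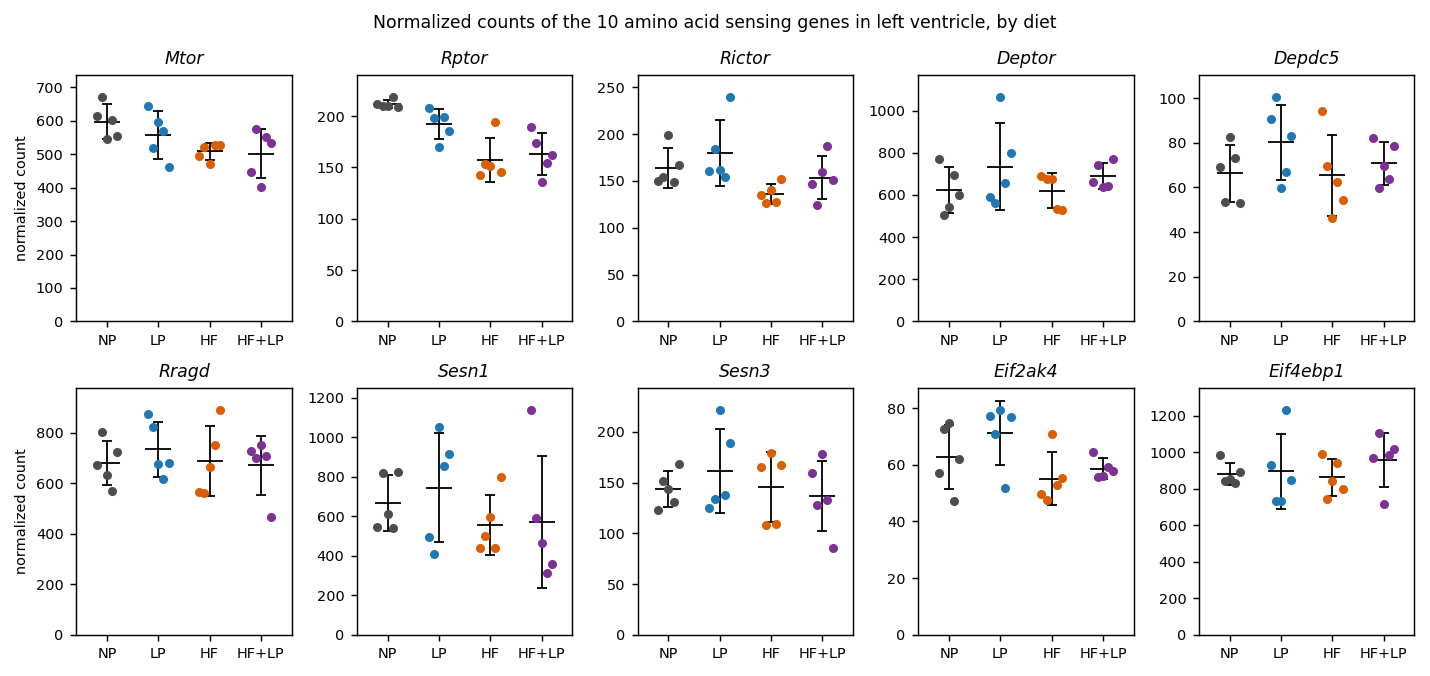
Normalized counts (y axis, starting at 0) of the 10 genes in each of the 20 mice, by diet group (x axis). Points are mice, horizontal bars are group means and whiskers are SD (n = 5). Every HF mouse lies below every NP mouse for Rptor and Mtor, and the groups overlap for the other genes in HF against NP.

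In the order of group means, LP was highest for 7 of the 10 genes, NP for Mtor and Rptor, and HF + LP for Eif4ebp1. HF was lowest for 7 and HF + LP for Mtor, Rragd and Sesn3. Groups next to each other in these orders overlapped, except NP and LP for Rptor, where the lowest NP mouse (209) lay just above the highest LP mouse (208). In LP against NP 0.786% of all genes had no overlap.

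Mtor encodes the kinase itself and lies on chromosome 4 of GRCm38 from 148448611 to 148557683, on the plus strand. Its normalized counts were 615, 671, 544, 603 and 553 in NP, and 645, 518, 595, 570 and 461 in LP. They were 493, 522, 472, 526 and 529 in HF, and 448, 575, 401, 550 and 534 in HF + LP. The highest HF mouse was below the lowest NP mouse, while HF + LP and LP overlapped. The log2 fold change of HF against NP was −0.23 (standard error 0.11, 95% interval −0.46 to −0.01), with an unadjusted p of 0.0453 and an adjusted p of 0.368 from edgeR. The unadjusted p of Mtor stayed under 0.05 in 10 of the 20 fits that left out 1 mouse, and it was 0.119 without NP mouse 4, the highest. In HF + LP against LP the log2 fold change of Mtor was −0.15 (95% interval −0.38 to 0.07), and it ran from −0.23 without LP mouse 20 to −0.07 without HF + LP mouse 3. A small RNA gene on the same strand, Gm23318, lies within the last 2000 bases of Mtor, where reads of this method fall, and it was not in the count table.

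Rptor encodes raptor, the scaffold that brings substrates to mTORC1, and lies on chromosome 11 from 119602905 to 119899576 on the plus strand. Normalized counts of Rptor were 211, 210, 210, 219 and 209 in NP, and 208, 198, 170, 199 and 186 in LP. They were 142, 153, 151, 194 and 146 in HF, and 190, 174, 136, 155 and 162 in HF + LP. NP mice were nearly identical (CV 1.82%), although counting error alone gives Rptor a CV of 7.57% at its median raw count. All HF mice were lower than all NP mice, and HF mouse 4 was well above the other 4 HF mice. HF mice averaged 157 ± 21.2, and NP mice averaged 212 ± 3.85 (SD, n = 5). This gave a log2 fold change of −0.43 (standard error 0.11, 95% interval −0.65 to −0.21), that is, 0.743-fold with an interval from 0.639 to 0.865. With an unadjusted p of 0.000593 Rptor ranked 182nd of the 13991 genes, and its adjusted p of 0.0455 from edgeR was over the threshold of 0.01. Over the 28 alternatives the adjusted p ran from 0.0238 (DESeq2) to 0.238 (replicate block), and the log2 fold change from −0.52 to −0.39.

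Without HF mouse 4 the log2 fold change of Rptor in HF against NP was −0.52 (adjusted p = 0.0270 from edgeR). In HF + LP against LP, which shares no mouse with the comparison above, Rptor differed by −0.23 (95% interval −0.45 to −0.01, unadjusted p = 0.0384, adjusted p = 0.286 from edgeR), and 2 of 5 HF + LP mice lay within the LP range of 170 to 208. The interaction, which compares these differences, was 0.20 on the log2 scale (95% interval −0.11 to 0.50, adjusted p = 0.843 from edgeR). In LP against NP all LP mice were lower than all NP mice for Rptor, and the log2 fold change was −0.14 (95% interval −0.36 to 0.07, adjusted p = 0.848 from edgeR). Genes without overlap between the groups made up 0.786% of all genes in LP against NP, 1.18% in HF + LP against HF, 5.67% in HF against NP, and 1.87% in HF + LP against LP, and of the 10 genes there were 1, 0, 2 and 0.

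Other measures also differed between the HF and NP libraries. Mitochondrially encoded genes took 38.1 to 39.8% of counts in HF and 41.3 to 47.1% in NP (exact two-sided permutation, p = 0.00794, which is the smallest that 5 against 5 mice allow, adjusted p = 0.103 over 52 tests). After removal of those genes, a setting chosen after seeing the data, Rptor differed by −0.41 and Mtor by −0.21. Summed markers are CPM of all counts, mitochondrial ones included and without TMM scaling, so they are not independent of the mitochondrial share. The summed level of the 6 macrophage markers was 374 to 499 CPM in HF and 251 to 368 CPM in NP, without overlap (exact permutation p = 0.00794, adjusted p = 0.103). The 4 of 5 listed lymphocyte markers in the table summed to 11.7 to 18.5 CPM in HF and 5.77 to 9.43 CPM in NP (same p). The 7 fibroblast markers summed to 1162 to 1533 CPM in HF and 963 to 1180 CPM in NP, with overlap (exact permutation p = 0.0238, adjusted p = 0.138). The 8 cardiomyocyte markers overlapped, with 39527 to 48619 CPM in HF and 41715 to 51488 CPM in NP (exact permutation p = 0.183). Macrophage markers in HF + LP (229 to 357 CPM) did not overlap those in HF either (exact permutation p = 0.00794, adjusted p = 0.103). Against HF, HF + LP had lower fibroblast markers and a higher mitochondrial share (exact permutation p = 0.0159 and 0.0238). Cardiomyocyte markers of these groups overlapped (exact permutation p = 0.532). No marker of these lists that is in the table was at a mean of 0 (the lymphocyte marker Cd79a was not in it). The part of these markers in the values of Rptor, Mtor and the other genes named in this report was not tested.

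Rictor encodes the subunit that defines mTORC2 and lies on chromosome 15 from 6708379 to 6800401 on the plus strand. Its normalized counts were 150, 154, 199, 149 and 167 in NP, and 161, 184, 162, 154 and 240 in LP. They were 135, 127, 141, 128 and 152 in HF, and 147, 124, 160, 187 and 151 in HF + LP. LP mouse 20 was the highest of all mice, and the HF and NP ranges met at their edges, with the highest HF mouse at 152 and the lowest NP mouse at 149. The log2 fold change was −0.26 in HF against NP (95% interval −0.54 to 0.02, adjusted p = 0.432 from edgeR) and −0.23 in HF + LP against LP (95% interval −0.51 to 0.05, adjusted p = 0.404 from edgeR). For protein restriction averaged over fat contents it was 0.16 (95% interval −0.04 to 0.35), and in LP against NP it was 0.14. Without LP mouse 20 Rictor was 0.09 for the average, 0.02 in LP against NP and −0.12 in HF + LP against LP.

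Deptor encodes an inhibitor that binds mTOR in both complexes, on chromosome 15 from 55112317 to 55259271 on the plus strand. Deptor had normalized counts of 770, 504, 543, 696 and 602 in NP, and 588, 562, 1064, 657 and 797 in LP. They were 692, 677, 673, 534 and 527 in HF, and 659, 740, 636, 644 and 772 in HF + LP. The highest value was that of LP mouse 13. In LP against NP the log2 fold change was 0.24 (95% interval −0.09 to 0.57, adjusted p = 0.821 from edgeR) with this mouse and 0.06 without it. Averaged over fat contents, low protein gave 0.20 (95% interval −0.04 to 0.43, unadjusted p = 0.0946, adjusted p = 1.00 from edgeR), and 0.10 without LP mouse 13. In HF + LP against LP the value was −0.09 with LP mouse 13 and 0.08 without it.

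**Figure D2:**
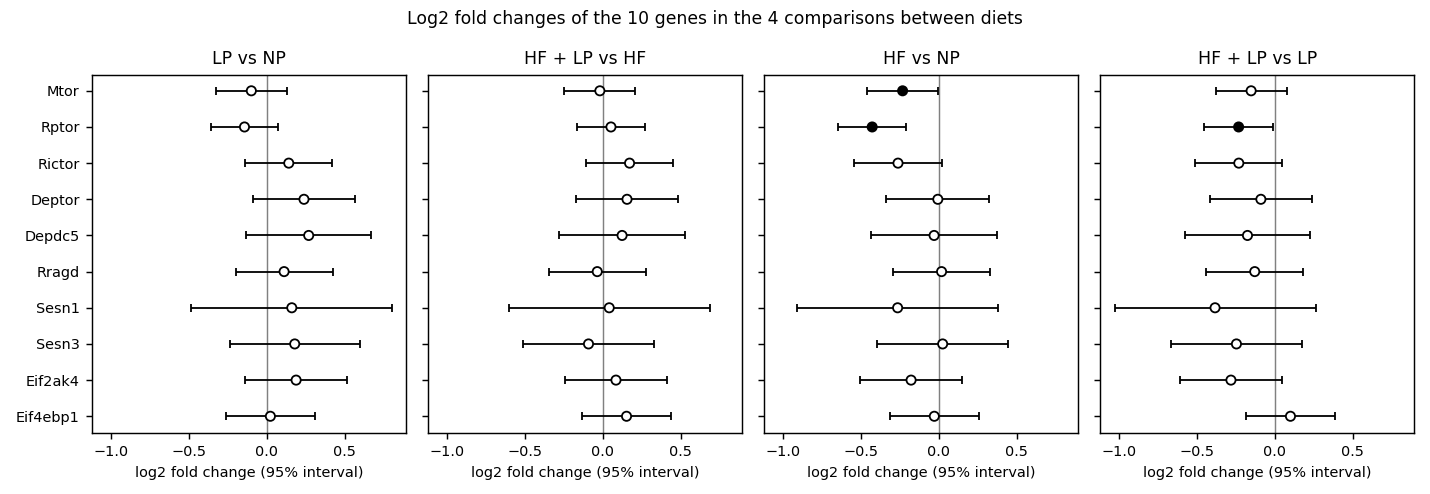
Log2 fold changes (x axis) of the 10 genes (y axis) in the 4 comparisons between diets, with 95% intervals from the edgeR fit as whiskers. Filled points have an unadjusted p under 0.05. The intervals of Rptor and Mtor in HF against NP and of Rptor in HF + LP against LP lie below 0, and the other 37 cross it.

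Rragd, a Rag GTPase of the pair that carries mTORC1 to the lysosome, lies on chromosome 4 from 32983037 to 33022180 on the plus strand. Rragd had normalized counts of 671, 801, 631, 570 and 724 in NP, and 874, 821, 677, 615 and 679 in LP. They were 563, 563, 665, 752 and 888 in HF, and 729, 698, 751, 706 and 467 in HF + LP. HF + LP mouse 5 was far below the other 4 mice of its group, and all groups overlapped. The log2 fold changes of the 4 comparisons between diets lay between −0.13 and 0.11, each with an interval across 0. For HF + LP against HF the value was −0.04 with this mouse and 0.07 without it, and for HF + LP against LP it was −0.13 and −0.02.

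Depdc5, the subunit of GATOR1 that contacts the Rag GTPases, lies on chromosome 5 from 32863701 to 32994236 on the plus strand. NP mice had 69.3, 53.7, 82.6, 73.1 and 53.2 normalized counts, and LP mice 90.5, 101, 59.8, 66.8 and 83.2. HF mice had 94.1, 69.8, 46.3, 62.5 and 54.5, and HF + LP mice 82.3, 59.8, 69.4, 63.8 and 78.4. All groups overlapped, and HF had both the lowest mouse and one of the highest. In LP against NP Depdc5 had a log2 fold change of 0.27 (95% interval −0.13 to 0.67), and that of HF + LP against HF was 0.12 (95% interval −0.28 to 0.53). Neither passed the test (adjusted p = 0.846 and 1.00 from edgeR). Leaving out 1 mouse moved Depdc5 in HF + LP against HF between 0.02 (without HF mouse 3) and 0.29 (without HF mouse 1), and in LP against NP between 0.17 (without LP mouse 5) and 0.36 (without LP mouse 13). Raw counts of Depdc5 were only 45 to 116 per mouse, and its mean CV between mice of a group was 20.4%.

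Sesn1 and Sesn3 encode sestrins, stress-induced proteins that hold mTORC1 back. Sesn1 lies on chromosome 10 from 41809935 to 41908424 and Sesn3 on chromosome 9 from 14275067 to 14333101, both on the plus strand. Normalized counts of Sesn1 were 547, 817, 611, 540 and 824 in NP, and 496, 410, 1049, 856 and 913 in LP. They were 441, 498, 596, 440 and 800 in HF, and 1135, 592, 462, 310 and 359 in HF + LP. In LP, 2 mice had 496 counts or fewer and the other 3 at least 856, and HF + LP held both the highest and the lowest mouse of the study.

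The mean CV of Sesn1 within groups was 36.0%, higher than that of 93.0% of the 10159 genes with a mean normalized count over 50, whose median was 16.4%. Intervals for Sesn1 were accordingly wide, from 0.715-fold to 1.74-fold for LP against NP and from 0.658-fold to 1.61-fold for HF + LP against HF. Without LP mouse 13 its log2 fold change in LP against NP went from 0.16 to −0.01. Without HF + LP mouse 1 its log2 fold change in HF + LP against LP went from −0.38 (unadjusted p = 0.228) to −0.79 (unadjusted p = 0.00818, adjusted p = 0.198 from edgeR), and in HF + LP against HF from 0.04 to −0.37, where leaving out HF mouse 5 gave 0.21. Without LP mouse 13 the value of Sesn1 in HF + LP against LP moved the other way, to −0.22 (unadjusted p = 0.510).

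For Sesn3, NP mice had 123, 152, 144, 131 and 169 normalized counts, and LP mice 125, 134, 221, 137 and 189. HF mice had 165, 108, 179, 109 and 167, and HF + LP mice 159, 128, 178, 133 and 85.6. All groups overlapped. Sesn3 had a log2 fold change in LP against NP of 0.18 (95% interval −0.24 to 0.60) and 0.03 without LP mouse 13, which had the highest value of all 20 mice. That of HF + LP against LP was −0.25 (95% interval −0.66 to 0.17, adjusted p = 0.565 from edgeR), and −0.11 without LP mouse 13.

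Eif4ebp1, the translation repressor 4E-BP1 that mTORC1 inactivates, lies on chromosome 8 from 27260329 to 27276674 on the plus strand. Eif4ebp1 had normalized counts of 983, 841, 855, 829 and 891 in NP, and 927, 732, 733, 1229 and 850 in LP. They were 988, 742, 839, 942 and 799 in HF, and 970, 1104, 713, 983 and 1018 in HF + LP. The groups overlapped, and 4 of 5 HF + LP mice had 970 or more. For HF + LP against HF the log2 fold change was 0.15 (95% interval −0.13 to 0.44, adjusted p = 1.00 from edgeR), or 0.10 without HF + LP mouse 2, and that of LP against NP was 0.02 (95% interval −0.26 to 0.31), or −0.12 without LP mouse 15, the highest for Eif4ebp1.

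Eif2ak4, which encodes GCN2, the kinase that senses uncharged tRNA, lies on chromosome 2 from 118388618 to 118475234 on the plus strand. Its normalized counts were 57.2, 72.8, 74.7, 47.3 and 62.2 in NP, and 77.2, 70.8, 79.3, 51.7 and 76.8 in LP. They were 49.6, 47.4, 70.7, 52.8 and 55.2 in HF, and 64.6, 55.6, 56.1, 59.4 and 57.7 in HF + LP. In LP 4 of 5 mice were above 70, with overlap between all groups. The log2 fold change was 0.19 in LP against NP (95% interval −0.14 to 0.51), or 0.10 without NP mouse 6 and 0.28 without LP mouse 15, and 0.08 in HF + LP against HF (95% interval −0.24 to 0.41), where leaving out 1 HF mouse gave 0.04 (mouse 2) to 0.19 (mouse 3). In HF + LP against LP it was −0.28 (95% interval −0.61 to 0.04, unadjusted p = 0.0851, adjusted p = 0.383 from edgeR). Raw counts of 36 to 126 per mouse gave Eif2ak4 the largest counting error of the 10 genes, a CV of 13.2% at the median.

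Protein restriction gave 95% intervals that all crossed 0, over both fat contents. At normal fat the log2 fold changes of the 10 genes had a median of 0.15, beside 0.02 over all genes tested, with 8 of 10 above 0. At high fat the median was 0.07, beside 0.02 over all genes, with 7 of 10 above 0. With high fat the medians were −0.10 at normal protein and −0.20 at low protein, beside 0.00 and −0.03 over all genes, with 8 and 9 of 10 below 0. These medians moved with single mice. In LP against NP the median was 0.07 without LP mouse 13, with 7 of 10 above 0. In HF + LP against HF it ran from 0.03 without HF + LP mouse 1 to 0.09 without HF + LP mouse 5. Leaving out 1 HF or NP mouse gave medians in HF against NP from −0.17 (without HF mouse 1) to −0.08 (without NP mouse 5). Without HF + LP mouse 3 that median was −0.06, with 5 of 10 below 0. This mouse is in neither group and enters only through the gene filter, the scaling and the shared model. In that fit Rptor, Mtor and Rictor were −0.39, −0.19 and −0.22 in HF against NP. LP against NP and HF against NP share the NP mice, and HF + LP against HF and HF against NP share the HF mice. LP against NP and HF + LP against LP share the LP mice. HF + LP against HF and HF + LP against LP share the HF + LP mice, so that these medians are not independent of each other.

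The wider pathway was examined with 93 listed genes in 9 groups by role, of which 90 were tested. None of these pathway genes was called in any comparison. In LP against NP 1 gene had an unadjusted p under 0.05, and in HF + LP against HF 3 did. In HF against NP 5 were higher and 6 lower at this threshold, and in HF + LP against LP 7 were higher and 3 lower. Low protein averaged over fat contents gave 1 higher and 1 lower, and the interaction 1. The shares of the 90 genes were 3.33% in HF + LP against HF, 12.2% in HF against NP, 11.1% in HF + LP against LP and 2.22% for the average, below those over all genes tested (4.84%, 13.1%, 15.9% and 5.47%), and 1 of 90 was also below 7.23% in LP against NP and 7.17% for the interaction. Without LP mouse 13 the counts were 0 in LP against NP, 3 higher and 2 lower in HF + LP against HF, 5 higher and 6 lower in HF against NP, 4 higher and 2 lower in HF + LP against LP, 2 higher and 1 lower for the average, and 1 each way for the interaction. Shares over all genes were not computed for the fit without that mouse, so these counts cannot be set beside them.

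**Figure D3:**
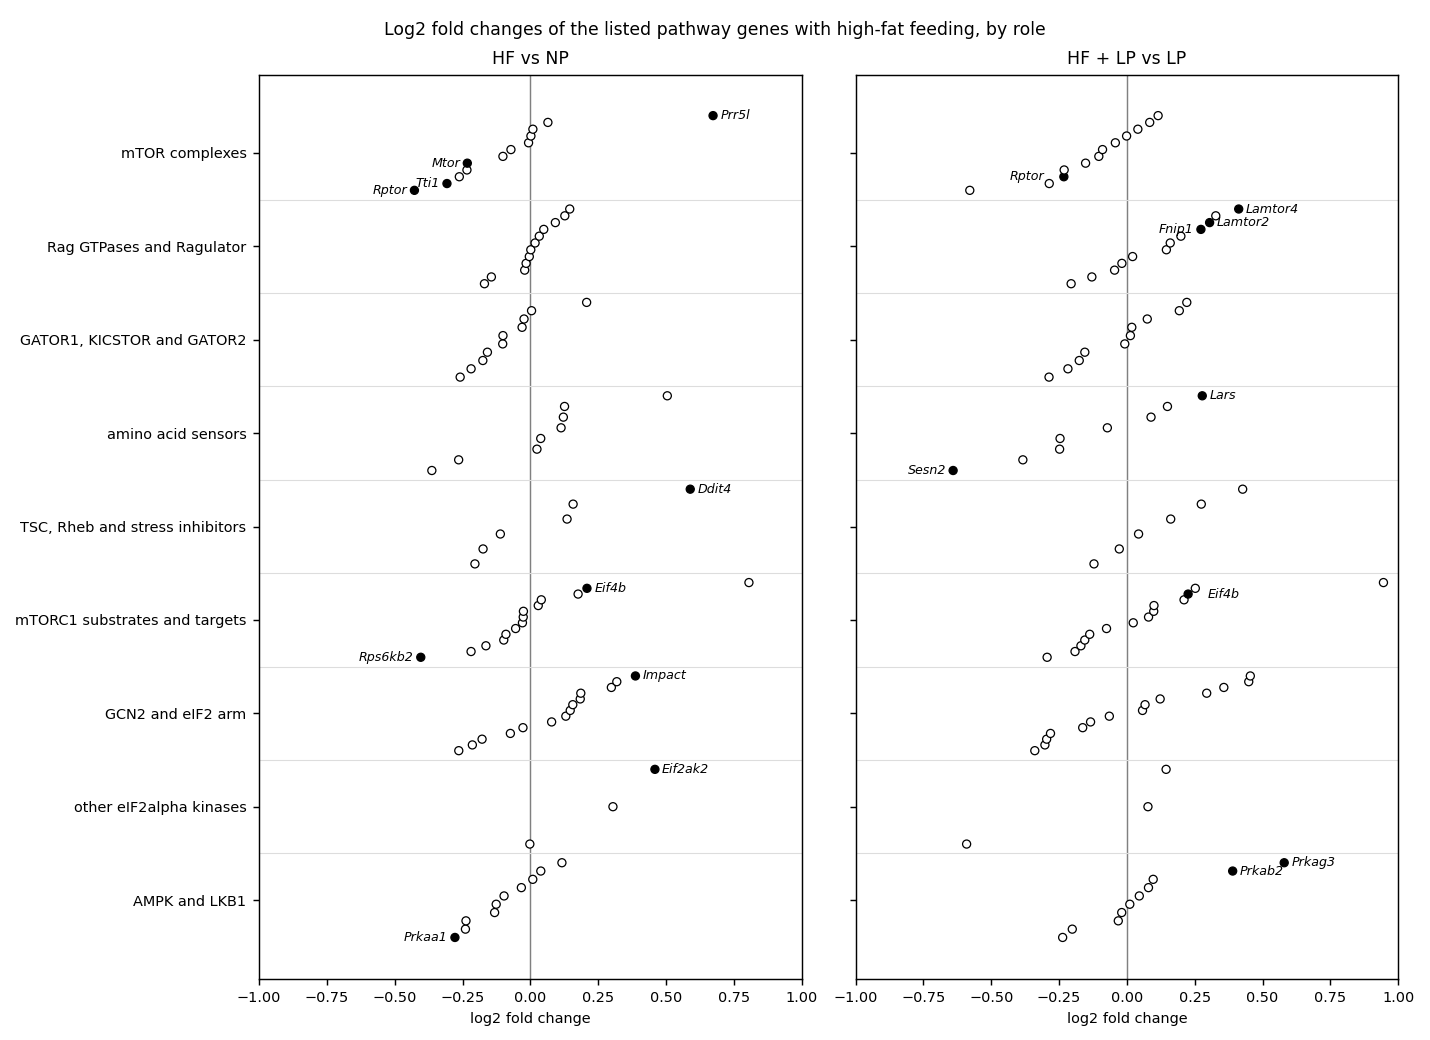
Log2 fold changes (x axis) of tested pathway genes by role (y axis), in HF against NP (left) and HF + LP against LP (right). Each circle is a gene, and filled, named circles have an unadjusted p under 0.05. Rptor lies at −0.43 and −0.23, and Eif4b at 0.21 and 0.23.

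Among the 12 subunits and assembly factors of the mTOR complexes, 3 (25% of the 12, beside 7.91% of all genes) were lower at an unadjusted p under 0.05 in HF against NP, namely Rptor, Mtor and Tti1, a chaperone of mTOR-like kinases (log2 fold change −0.31, adjusted p = 0.364 from edgeR). Prr5l, which codes for an mTORC2 partner, was higher (log2 fold change 0.67, adjusted p = 0.312 from edgeR). For HF + LP against LP 1 of the 12 was lower at this threshold, namely Rptor (8.33%, beside 9.66% of all genes). This list holds some of the 10 genes and was written with earlier results of these data known. The unadjusted p of Mtor in HF against NP was over 0.05 with RLE scaling (0.0634 from edgeR) and with DESeq2 (0.0600). Of the 12 tested genes of the Rag GTPases and Ragulator, none had an unadjusted p under 0.05 in HF against NP. In HF + LP against LP the Ragulator subunits Lamtor4 (0.41) and Lamtor2 (0.30) and the folliculin partner Fnip1 (0.27) did. These were 3 of 12 genes, beside 876 of all 13991 genes that were higher at this threshold. The smallest adjusted p of the 12 was 0.164 from edgeR. In HF + LP against HF the lysosomal arginine sensor Slc38a9 did (0.22), 1 of 12 beside 337 of all 13991 genes (adjusted p = 0.940 from edgeR). Without LP mouse 13, which was the lowest LP mouse for Lamtor4, the value of Lamtor4 was 0.28.

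Among the 8 amino acid sensors, Sesn2 was the sestrin with the smallest p. Its normalized counts ran from 12.4 to 32.7 in NP and 17.3 to 30.8 in LP. HF mice had 35.6, 39.5, 23.6, 19.4 and 22.2, and those of HF + LP 19.8, 15.0, 17.1, 7.84 and 14.4. HF and HF + LP overlapped by 1 mouse each. The log2 fold change was −0.89 in HF + LP against HF (standard error 0.30, adjusted p = 0.578 from edgeR) and −1.15 for the interaction (standard error 0.42, adjusted p = 0.668 from edgeR). Sesn2 in HF + LP against LP was −0.64 (unadjusted p = 0.0455), and −0.56 without LP mouse 13 (unadjusted p = 0.106). With a mean count under 50 it could not have been called. The leucyl-tRNA synthetase gene Lars, listed for its role in leucine sensing, was 0.28 in HF + LP against LP (adjusted p = 0.276 from edgeR) and 0.16 without LP mouse 13.

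Of the 14 genes of substrates and targets of mTORC1, the cap-binding protein gene Eif4e was −0.32 in LP against NP (unadjusted p = 0.0157, adjusted p = 0.609 from edgeR) and −0.24 without LP mouse 13. In HF against NP the S6 kinase gene Rps6kb2 was −0.40 and the initiation factor gene Eif4b 0.21 (adjusted p = 0.153 and 0.275 from edgeR), and in HF + LP against LP Eif4b was 0.23 (adjusted p = 0.199). In the group of TSC genes, Rheb and stress inhibitors upstream of mTORC1, the stress-induced Ddit4 was 0.59 in HF against NP (adjusted p = 0.277 from edgeR). HF mice 2 and 3 were at 992 and 1019, and the other 3 were within the NP range of 396 to 616. The other genes of that group had an unadjusted p of 0.05 or more in every comparison.

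In the GCN2 branch, 14 genes were tested beside 3 other eIF2α kinases. Impact, which codes for an inhibitor of GCN2 activation, was 0.39 in HF against NP (adjusted p = 0.268 from edgeR). Eif2ak2, the gene of the RNA-activated kinase PKR and itself induced by interferon, was 0.46 in HF against NP, −0.65 in HF + LP against HF, and −0.50 with low protein averaged over fat contents (adjusted p = 0.326, 0.473 and 0.610 from edgeR). Its counts spanned 90.3 to 191 in HF and 72.2 to 109 in HF + LP. Among the 10 genes of AMPK and its activating kinase LKB1, the catalytic subunit gene Prkaa1 was −0.28 in HF against NP. The regulatory subunit genes Prkag3 (0.58) and Prkab2 (0.39) had higher means in HF + LP than in LP, with 0.40 and 0.25 without LP mouse 13, and Prkab1 was 0.18 with low protein averaged over fat contents (adjusted p between 0.229 and 0.855 for these 4 from edgeR).

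Between mice of the same diet, the 10 genes did not vary as 1 block. Pearson correlations of log2 CPM, taken after each diet's mean was subtracted and over 20 mice that share library depth and scaling, had a median of −0.01 over the 45 pairs. Of the pairs, 2.22% were over 0.5 and 6.67% under −0.5, beside 11.1% and 9.68% of all pairs of genes with a mean normalized count over 50. Sesn1 and Sesn3 were the pair over 0.5 (r = 0.60). Deptor and Rragd (−0.60), Mtor and Rictor (−0.54), and Rptor and Sesn3 (−0.53) were the pairs under −0.5. These values are given as a description, without a test.

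**Figure D4:**
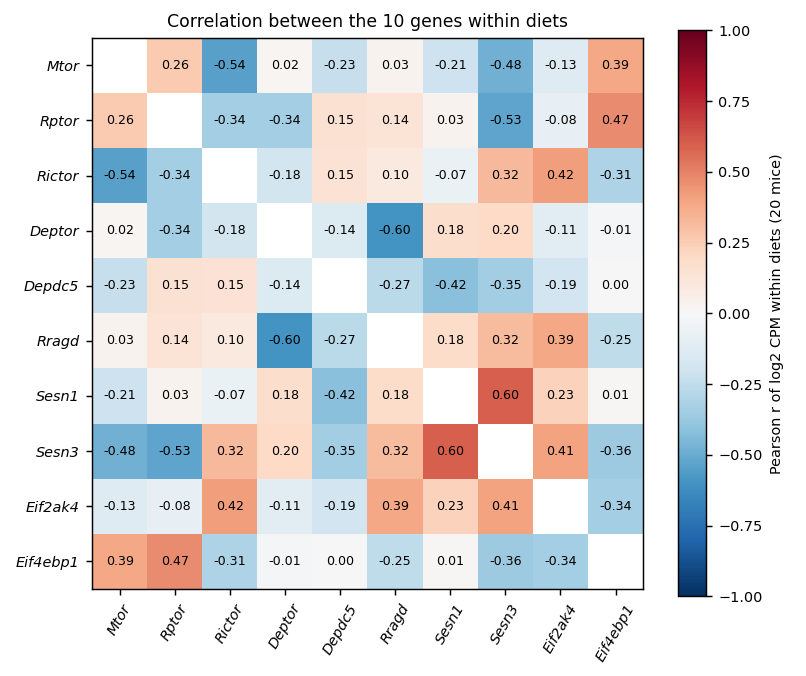
Pearson correlation of log2 CPM between the 10 genes over 20 mice after subtraction of diet means, from blue (negative) to red (positive). Sesn1 and Sesn3 form the highest pair (0.60) and Deptor and Rragd the lowest (−0.60).

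The genes most like each of the 10 over the 20 mice were named by rule as the 3 with the highest Pearson correlation of log2 CPM among 10159 genes. The highest single value was that of Sesn1 with Klf15, which encodes a metabolic transcription factor of muscle and liver (r = 0.93, and 0.94 within diets), followed by Pde7a (0.87) and Intu (0.86). Klf15 was 619 in LP mouse 13 and 487 in HF + LP mouse 1, the mice with the highest Sesn1, and 98.6 in HF + LP mouse 4, the mouse with the lowest. For Sesn3 they included Gltp and Ubl3 (0.90 and 0.89).

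**Figure D5:**
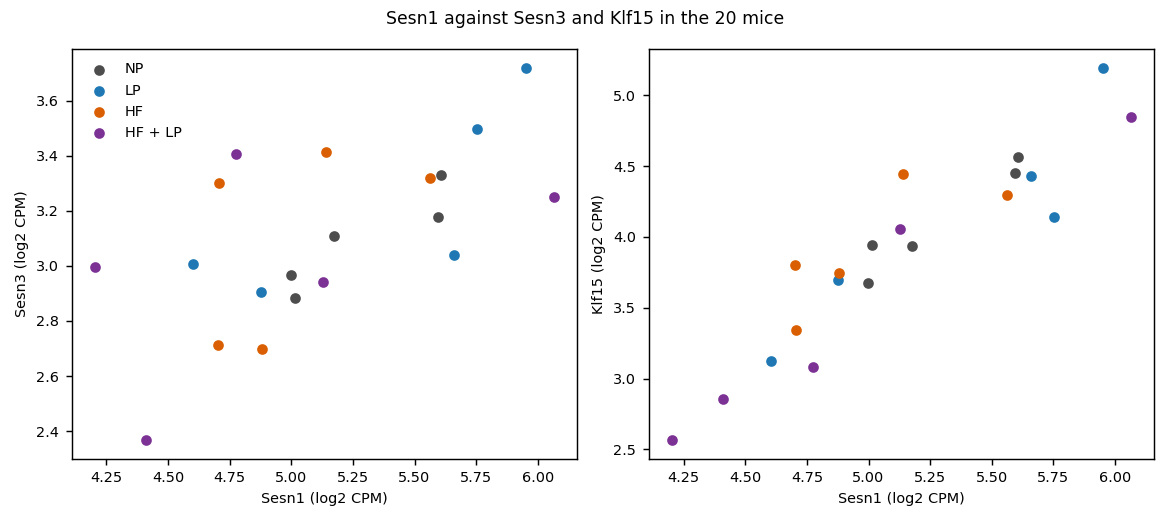
Sesn1 (x axis) against Sesn3 (left) and Klf15 (right), as log2 CPM in each of the 20 mice, coloured by diet. LP mice and HF + LP mice lie at both ends of the Sesn1 axis, and Klf15 follows Sesn1 with r = 0.93.

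Mtor was closest to Mavs and to Atp6v0a1, a subunit gene of the lysosomal proton pump (r = 0.89 and 0.88). Rptor was closest to Ogdh, a citrate cycle enzyme gene (0.87), with Ky at 0.84, and Rictor to Lrwd1 and Nfat5 (0.86 and 0.85). Deptor was closest to Acat2, the hormone-sensitive lipase gene Lipe, and Vwf (0.82, 0.81 and 0.77). Acat2 was 216 in LP mouse 13 and 138 in LP mouse 20, and at most 84.4 in the other mice. These mice had the highest Deptor and the highest summed adipocyte markers (340 and 147 CPM). Lrwd1 was 94.0 in LP mouse 20, the highest mouse for Rictor, and at most 69.5 in the other mice. For Depdc5 they were Fstl4, Zmym4 and Chd2 (0.89, 0.86 and 0.85), and for Rragd Nob1, Mettl14 and Wdr75 (0.85, 0.84 and 0.84). Eif2ak4 had Aff1 and Tdp2 (0.75 and 0.75), and Eif4ebp1 had the glutaminyl-tRNA synthetase gene Qars, Abhd14a and Ubald1 (0.77, 0.76 and 0.75). With 20 mice and 10159 genes to choose from, each value is the highest of many, and nothing is read from them about shared function or control.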

How the data were processed

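RNA of the left ventricle of 20 mice was made into QuantSeq 3′ libraries and sequenced in 75 bp reads on a NextSeq 500, and the authors aligned the reads on the BlueBee platform. The authors deposited 1 table of raw read counts per gene, not normalized. The build (GRCm38) and DESeq2 1.22.2 come from the submitters' processing notes, and the counting program and annotation are not given in the sources used here. QuantSeq reads fall near the 3′ end, so counts do not scale with transcript length and levels were not compared between genes. Symbols were matched for 15917 of 15956 genes, and 0 value columns were unmapped.

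Groups came from the sample labels. Genes passing filterByExpr (13991) were scaled by TMM and fitted with edgeR 4.0.16 (R 4.3.3, quasi-likelihood test, all 4 groups in 1 model). Standard errors were derived from the F statistic. Normalized counts are TMM-scaled CPM times the mean effective library size, and log2 CPM used a prior count of 2. For a call, the adjusted p had to be below 0.01 with more than 50 normalized counts on average. The script was tested on simulated data. Summed markers are CPM of all counts without TMM scaling and were compared by exact permutation. The members and lists were chosen with earlier results of these data known. Besides the members, up to 3 genes of each pathway list and comparison were named, those with the smallest unadjusted p under 0.05, and for each member the 3 genes most correlated with it over the 20 mice. Alternatives were RLE scaling, DESeq2 1.42.0, no filter, an adjusted p under 0.05, the animal number as a replicate block, the library number, 2 groups alone, removal of mitochondrial genes and leaving out each mouse. Animal numbers recur between groups but do not pair mice. Libraries of a group differed by more than sampling noise. Gene positions came from GENCODE M21 and promoters from RefSeq. Some genes that the naming rule selects are not reported here, and the plot of pathway genes leaves out 1 gene for the same reason.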

Additional observations from a re-analysis of the deposited data

Results flagged for a closer look

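Of 40 sets of 5 mice tested (10 genes in 4 groups), 3 held a mouse set apart from the other 4 relative to their spread, with a gap to its nearest neighbour over 0.71 of the whole range, and chance gives about 1 in 20 such sets. Rptor in NP mouse 6 was 218.5 normalized counts, with a gap of 0.777 of a range that began at 209.2 and had 211.3 as its next value. That whole range is small, since the CV of these NP mice was 1.82% and counting error alone gives Rptor a CV of 7.57% at its median raw count. Rptor in HF mouse 4 was 194.5, with a gap of 0.799, above the next HF mouse at 152.9. Rragd in HF + LP mouse 5 was 467.1, with a gap of 0.811, below the next HF + LP mouse at 697.6.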

How the results depend on the processing

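Of the 60 log2 fold changes of the 10 genes, none of which was called, 24 had another sign in at least 1 alternative (28 alternatives, 20 of which left out a mouse, or 27 for the average over fat contents and the interaction, which have no fit of 2 groups alone). With an adjusted p under 0.05, 157 genes were called in HF against NP (37 at 0.01), 1 of them among the 10 (Rptor), and 45 in HF + LP against LP (14 at 0.01). DESeq2 called 3 genes in LP against NP, 16 in HF + LP against HF, 158 in HF against NP, 81 in HF + LP against LP and 1 for low protein averaged over fat contents. A fit of the 2 groups alone called 61 genes in HF against NP and 0 in HF + LP against LP, and the library number as a covariate left 5 in HF + LP against LP. With the animal number as a replicate block, which shares only a number between mice (deviations of same-numbered mice correlated from −0.55 to 0.48 over the 5 pairs of HF + LP and HF), 2 genes were called in HF against NP and 0 in HF + LP against LP, and 2 and 0 of the 10 had an unadjusted p under 0.05. Of the 10 genes, 1 (Rptor) had such a p in HF against NP under RLE scaling, DESeq2, no filter, the library number, and removal of mitochondrial genes (chosen after seeing the data), in place of 2. In HF + LP against LP 0 had one under DESeq2, no filter, the library number and 2 groups alone, in place of 1. Leaving out each mouse gave 20 (without NP mouse 6 or HF mouse 4) to 69 (without LP mouse 13) called genes in HF against NP, 1 (without HF + LP mouse 2 or 4) to 16 in HF + LP against LP, and 0 to 1 in HF + LP against HF. It gave 1 to 3 (without LP mouse 20) of the 10 at an unadjusted p under 0.05 in HF against NP, 0 to 2 in HF + LP against LP, and 0 to 1 for low protein averaged over fat contents. The cause of these shifts was not tested. Raw counts of 36 to 126 for Eif2ak4 and 45 to 116 for Depdc5 limit their precision.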
